A study of Mus musculus with 13 samples.

Results

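The genes described here encode the aminoacyl-tRNA synthetases of the cytosol and of the mitochondria in the mouse retina. They were chosen by symbol, one name per amino acid (*Aars*, *Cars* and so on to *Yars*) without a suffix or ending in 1, 2, a, b or l2, which gives 37 genes. Of these, 34 were measured among the 19937 genes of the array, namely 17 of 19 cytosolic genes, 15 of 16 mitochondrial genes, and *Gars* and *Kars*, each of which makes the enzyme of both compartments from 1 gene. *Aars* shares its probe set with *Exosc6* and was not used, and the remaining genes were not analysed here.

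Each synthetase joins one amino acid to its tRNA, and so supplies the ribosome with charged tRNA. Cytosolic protein synthesis and the synthesis of the few respiratory chain subunits made inside mitochondria use separate sets of these enzymes, almost all of them encoded by separate nuclear genes. In mammalian cells, many genes of cytosolic synthetases are known targets of Atf4, the transcription factor of the amino acid response, whereas PGC-1α, which is encoded by *Ppargc1a*, is known as a coactivator for genes of mitochondrial biogenesis.

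RNA from the 2 retinae of a mouse was pooled and measured on Affymetrix Mouse Gene 1.0 ST chips, each mouse having its own array. The groups were global PGC-1α KO mice on a C57BL/6 background after light (KO light, 3 arrays) and in the dark (KO dark, 3 arrays), and wild-type C57BL/6 NRj mice after light (WT light, 3 arrays) and in the dark (WT dark, 4 arrays). The wild-type mice were bought and the KO mice came from another colony, so that genotype and origin cannot be told apart, and the animals were 6 to 13 weeks old. Mice were dark adapted for 16 h, and the light groups then received 15000 lux for 2 h after dilation of the pupils. The methods give a night of recovery in the dark after light, and the hour at which RNA was taken for the arrays is not given in the sources. The labels describe the light mice as male and the dark mice as female with the exception of WT dark 4, which was male, whereas the methods name male mice throughout. *Xist* and *Uty* followed the labels in all 13 arrays, so that light against dark is also male against female in the comparisons below, and the 2 factors cannot be told apart.

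A pair of arrays stood apart from their labels. Over all genes, the array labelled WT dark 4 had a mean correlation of 0.997 with KO light 1 and 2. It had 0.993 with WT light, 0.990 with KO dark and 0.989 with WT dark 1 to 3. The array labelled KO light 3 had a mean correlation of 0.992 with KO light 1 and 2. It had 0.997 with WT dark 1 to 3, 0.996 with KO dark and 0.995 with WT light. Results are therefore given for the 12 arrays as labelled (without WT dark 4), without KO light 3, and with WT dark 4 in place of KO light 3, which is called the exchanged arrays below. The exchange and the omission of KO light 3 were both chosen from the values of the arrays. The p-values of either fit are therefore not independent of that choice. *Ppargc1a* itself measured 9.96 to 10.40 log2 in the 6 KO arrays and 9.85 to 10.03 log2 in the 6 WT arrays used. Whether its probe set lies in the deleted part is not stated in the sources, and it checks no label. The mean of 10 genes of reactive glia was 9.58, 9.26 and 7.91 log2 in KO light 1 to 3, against 7.65 to 7.73 in KO dark, and 7.89 to 8.60 in WT light, against 7.55 to 7.85 in WT dark 1 to 3. It was 9.85 in WT dark 4. Rod genes (9 of 10 measured) had means of 11.92 to 12.33 log2 and bipolar cell genes (3 of 4 measured) of 10.46 to 10.68 in the 13 arrays. Means of Müller glia genes were 10.66 to 10.90 log2, of microglia genes 6.52 to 6.66 and of pigment epithelium genes 6.77 to 8.07, while 4 lens genes varied within every group, over 6.64 to 9.97 log2.

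Promoters of 26 of the 34 measured members are in the RefSeq table for GRCm38.p6, and the 250 bases before the start were searched on both strands for the C/EBP-ATF element (TGATGNAA), through which Atf4 acts. *Tars* (1 of 10 cytosolic promoters) and *Gars* (1 of 2 dual promoters) held one, as did 3.45% of 32851 promoters of the table. Of the mitochondrial members 0 of 14 did. With so few promoters these counts cannot tell the classes apart. The 2 sequences are shown because no other of the 26 promoters held the element. The first is chr15:11399659-11399908 on the minus strand and the second chr6:55037751-55038000 on the plus strand, each 5′ to 3′, with the element, which reads on the opposite strand, in capitals.
Tars: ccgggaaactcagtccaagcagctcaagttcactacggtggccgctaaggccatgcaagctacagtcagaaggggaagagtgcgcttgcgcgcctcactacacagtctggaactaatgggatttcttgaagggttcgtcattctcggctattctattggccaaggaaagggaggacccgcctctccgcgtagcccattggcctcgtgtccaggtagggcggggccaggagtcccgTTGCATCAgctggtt
Gars: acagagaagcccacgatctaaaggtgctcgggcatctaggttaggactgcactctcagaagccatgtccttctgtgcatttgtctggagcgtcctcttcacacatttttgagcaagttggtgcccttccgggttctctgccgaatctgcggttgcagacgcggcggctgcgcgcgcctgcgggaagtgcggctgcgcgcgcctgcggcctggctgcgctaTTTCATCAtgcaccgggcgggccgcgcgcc
The element ended 7 bases before the start in *Tars* and 22 bases before it in *Gars*. The element AAGGTCA of the estrogen-related receptors, partners of PGC-1α, was in none of the 26 windows, against 4.08% of the table. The Nrf1 element (GCGCA, any base, GCGC) was in those of *Tars* and *Kars*, against 3.74% of the table. These are matches of letters and were not tested for binding.

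The first comparison asked how the synthetases of the dark retina differed between the genotypes. The median difference KO dark minus WT dark was -0.10 log2 units over the 17 cytosolic genes, whereas the median of the 15 mitochondrial genes was -0.04 and that of all genes 0.00. A lower mean in KO dark was found for 13 of 17 cytosolic genes, for both *Gars* and *Kars*, and for 9 of 15 mitochondrial genes, against 48.4% of all genes. No member passed limma's test at an adjusted p under 0.05 together with a ratio of 1.2 or more, or of 0.87 or less, as did 0.0752% of all genes, and none did without moderated variances. At an unadjusted p under 0.05 with the same ratios, 4 members were lower and 0 higher, against 1.48% of all genes lower. The exchanged arrays, which change only the common spread here, gave 0 called members, against 0.878% of all genes. The 3 KO dark arrays lay below the 3 WT dark arrays in 10 of 34 members, against 7.45% of all genes, and above them in 4, against 9.26%. Below were 8 cytosolic genes, *Gars* and 1 mitochondrial gene. In a bulk sample, fewer cells of a type and less RNA per cell cannot be told apart.

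*Gars*, the glycyl-tRNA synthetase, had 9.18, 9.27 and 9.31 log2 in KO dark 1 to 3, against 9.49, 9.57 and 9.49 in WT dark 1 to 3 and 9.76 in WT dark 4. *Cars*, which charges cysteine tRNA, had 8.42, 8.51 and 8.40 in KO dark, against 8.67, 8.60 and 8.86 in WT dark and 8.76 in WT dark 4. Both genes were lower in each KO dark array than in any WT dark array, by -0.27 ± 0.06 (SE) for *Gars* and -0.27 ± 0.08 for *Cars* on the log2 scale, with limma's adjusted p at 0.141 and 0.361. *Yars*, which charges tyrosine tRNA, measured 8.74, 8.96 and 8.85 log2 in KO dark, against 9.11, 9.08 and 9.07 in WT dark and 9.34 in WT dark 4. *Nars*, for asparagine, measured 10.08, 10.17 and 10.11 log2 in KO dark, against 10.33, 10.31 and 10.32 in WT dark and 10.54 in WT dark 4. WT dark 1 to 3 lay close together for *Nars*, and its difference of -0.20 ± 0.05 had limma's adjusted p = 0.167, while that of *Yars* was -0.23 ± 0.07 with an adjusted p of 0.326. These 4 genes are those that passed the unadjusted p with the ratio thresholds. At that p alone 9 members were lower, with *Iars*, *Mars*, *Sars*, *Vars* and *Lars2* in addition, against 3.33% of all genes, and 0 higher, against 3.77%.

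The cytosolic threonyl enzyme gene *Tars* was also without overlap, at 7.77, 7.64 and 7.68 log2 in KO dark, against 7.94, 7.81 and 8.00 in WT dark 1 to 3 and 8.80 in WT dark 4 (-0.22 ± 0.15, limma's adjusted p = 0.879). WT dark 4 was the highest of the 13 arrays for this gene. *Mars* (methionine, -0.14 ± 0.06), *Vars* (valine, -0.13 ± 0.05), *Sars* (serine, -0.12 ± 0.05) and *Iars* (isoleucine, -0.16 ± 0.07) completed the cytosolic genes without overlap, with limma's adjusted p of 0.507 to 0.685. For *Iars* the nearest arrays of the 2 groups were equal at the precision printed, and 1 of its 2 probe sets overlapped. *Sars* had 10.24, 10.21 and 10.16 log2 in KO dark, against 10.32, 10.26 and 10.38 in WT dark and 10.40 in WT dark 4. Lower means with overlap were found for *Lars* (leucine, -0.10), *Rars* (arginine, -0.08), *Eprs*, which charges glutamate and proline tRNA (-0.06), *Wars* (tryptophan, -0.06) and *Farsb*, a subunit of the phenylalanine enzyme (-0.03).

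Other cytosolic genes went the other way. *Qars*, for glutamine, had 9.40, 9.46 and 9.38 log2 in KO dark, against 9.28, 9.30 and 9.35 in WT dark and 9.56 in WT dark 4, a difference of 0.10 ± 0.05 with limma's adjusted p = 0.773. *Farsa*, the other subunit of the phenylalanine enzyme, had 9.27, 9.26 and 9.27 log2 in KO dark, against 9.24, 9.24 and 9.21 in WT dark and 9.45 in WT dark 4 (0.04 ± 0.05). In both, the KO dark arrays lay above WT dark 1 to 3 and below WT dark 4. *Hars* (histidine) differed by 0.05, *Tarsl2*, a second gene for a threonyl enzyme, by 0.02, and *Kars* (lysine) by -0.02, all with overlap.

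The synthetases known as Atf4 targets were described apart. Of 12 listed genes 11 were measured (*Cars*, *Eprs*, *Gars*, *Iars*, *Lars*, *Mars*, *Nars*, *Sars*, *Tars*, *Wars* and *Yars*). A lower mean in KO dark was found in 11 of 11, against 48.4% of all genes, with a median difference of -0.16 log2 units, and 8 of them lay lower without overlap, against 7.45% of all genes. Of the 8 remaining cytosolic or dual genes 4 were lower and 4 higher, with a median of 0.00. The median deviation of the 11 genes from their mean over the 12 arrays was -0.18, -0.14 and -0.19 in KO dark 1 to 3, against 0.01, -0.06 and 0.03 in WT dark 1 to 3 and 0.22 in WT dark 4. Each KO dark array was therefore below each WT dark array for this group, as the plot of synthetase groups by array shows. The 7 synthetases of the multisynthetase complex that were measured, a cytosolic assembly, had a median of -0.08, and 6 of 7 were lower.

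**Figure D1:**
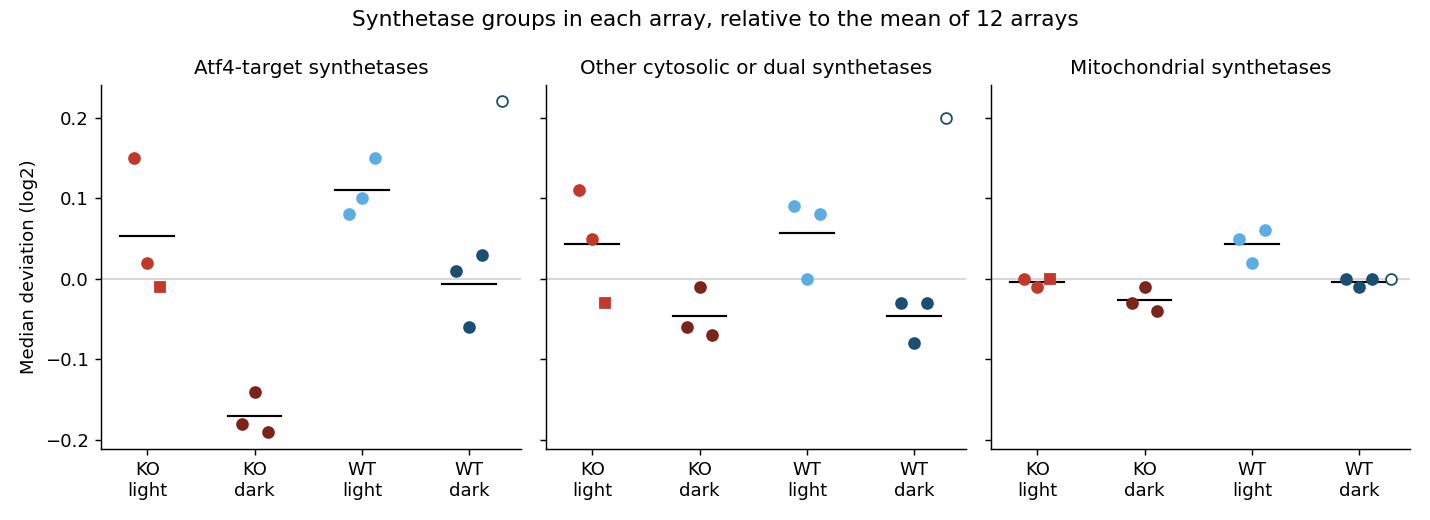
Median deviation (log2) of the 11 Atf4-target synthetases, 8 other cytosolic or dual synthetases and 15 mitochondrial synthetases in each array, relative to each gene's mean over 12 arrays. Points are arrays, lines are means of 3 arrays, the square is KO light 3, and the open circle is WT dark 4, which is not in the mean. The Atf4 targets sit at -0.19 to -0.14 in KO dark, against -0.06 to 0.03 in WT dark 1 to 3, while mitochondrial synthetases stay within -0.04 to 0.06 in all 13 arrays.

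Among the mitochondrial genes *Lars2*, which charges mitochondrial leucine tRNA, was without overlap and lower. It had 7.86, 7.85 and 7.80 log2 in KO dark, against 7.99, 8.03 and 7.90 in WT dark and 7.95 in WT dark 4, and differed by -0.14 ± 0.05 (limma's adjusted p = 0.571). *Nars2* (asparagine) had 8.55, 8.54 and 8.54 log2 in KO dark, against 8.46, 8.43 and 8.54 in WT dark and 8.61 in WT dark 4. *Hars2* (histidine) had 8.53, 8.51 and 8.49 log2 in KO dark, against 8.48, 8.47 and 8.44 in WT dark and 8.47 in WT dark 4. *Nars2* and *Hars2* were thus higher in KO dark without overlap with WT dark 1 to 3, by 0.07 ± 0.07 and 0.04 ± 0.04, with adjusted p of 0.938 and 0.952. For *Nars2* the nearest arrays of the 2 groups were equal at the precision printed. The remaining mitochondrial genes overlapped, at -0.10 in *Mars2*, -0.09 in *Fars2*, -0.08 in *Rars2*, *Wars2* and *Yars2*, -0.06 in *Ears2*, -0.04 in *Tars2*, -0.01 in *Iars2*, 0.02 in *Cars2*, 0.03 in *Sars2*, 0.04 in *Aars2* and 0.07 in *Vars2*.

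The second comparison asked how the synthetases of KO retinae differed after light. With the arrays as labelled, the median difference KO light minus KO dark was 0.12 log2 units in the cytosolic genes, 0.28 over *Gars* and *Kars*, 0.02 in the mitochondrial genes and 0.00 in all genes. A higher mean after light was found in 15 of 17 cytosolic genes, in *Gars* and *Kars*, and in 9 of 15 mitochondrial genes, against 48.4% of all genes. No member was called by limma, against 0.100% of all genes, and none without moderated variances. At an unadjusted p under 0.05 with the ratio thresholds, 4 members were higher (*Mars*, *Yars*, *Tars* and *Kars*), against 2.95% of all genes. At that p alone, 13 members were higher, against 8.00% of all genes, and 0 lower, against 5.94%. The 3 KO light arrays lay above the 3 KO dark arrays in 11 of 34 members, 9 of them cytosolic, 2 dual and 0 mitochondrial, against 6.44% of all genes.

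*Tars* had 8.62, 8.16 and 7.81 log2 in KO light 1 to 3, against 7.77, 7.64 and 7.68 in KO dark. Its difference of 0.50 ± 0.15 was the largest among the 34 members, with limma's adjusted p = 0.191. The spread among the KO light arrays was wide (SD 0.40, against 0.07 in KO dark), and KO light 3 lay just above the highest KO dark array. Without KO light 1 the difference was 0.29. The promoter of this gene, like that of *Gars*, holds the element shown in capitals above. The part of that element in the light difference was not tested. *Mars*, which charges both initiator and elongator methionine tRNA, had 9.56, 9.40 and 9.31 log2 in KO light, against 9.13, 9.16 and 9.13 in KO dark (0.29 ± 0.06, adjusted p = 0.0922 by limma). *Yars* had 9.31, 9.13 and 9.07 log2 in KO light, against 8.74, 8.96 and 8.85 in KO dark (0.32 ± 0.07, adjusted p = 0.117). In both genes KO light 3 was the lowest light array and still above each dark array.

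*Kars*, the lysyl enzyme of both compartments, had 8.58, 8.61 and 8.41 log2 in KO light, against 8.26, 8.21 and 8.19 in KO dark (0.31 ± 0.07, adjusted p = 0.13 by limma). *Gars* had 9.62, 9.42 and 9.46 log2 in KO light, against 9.18, 9.27 and 9.31 in KO dark (0.25 ± 0.06, adjusted p = 0.142). *Nars* had 10.42, 10.29 and 10.30 log2 in KO light, against 10.08, 10.17 and 10.11 in KO dark (0.21 ± 0.05, adjusted p = 0.119). None of these groups of arrays overlapped, and for *Gars* and *Nars* the KO light mean (9.50 and 10.33) lay near that of WT dark (9.52 and 10.32). *Vars* had 8.55, 8.48 and 8.42 log2 in KO light, against 8.32, 8.31 and 8.27 in KO dark (0.18 ± 0.05, adjusted p = 0.146). *Cars* had 8.81, 8.51 and 8.74 log2 in KO light, against 8.42, 8.51 and 8.40 in KO dark (0.25 ± 0.08, adjusted p = 0.23), where the nearest arrays were equal at the precision printed. *Rars* (0.14), *Eprs* (0.12) and *Sars* (0.11) completed the genes without overlap.

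*Hars* showed the split between the KO light arrays most plainly, with 8.60 and 8.72 log2 in KO light 1 and 2 and 8.20 in KO light 3, against 8.16, 8.37 and 8.21 in KO dark. Its difference of 0.26 ± 0.11 had limma's adjusted p = 0.321, and KO light 3 lay among the dark arrays. *Yars2*, the mitochondrial tyrosyl gene, divided in the same way, at 8.26, 8.29 and 8.02 log2 in KO light, against 8.07, 7.95 and 7.96 in KO dark (0.20 ± 0.08, adjusted p = 0.28). The remaining cytosolic differences were 0.11 in *Lars* and *Wars*, 0.05 in *Iars*, 0.03 in *Farsa*, 0.00 in *Qars*, -0.01 in *Farsb* and -0.03 in *Tarsl2*. The remaining mitochondrial differences ran from -0.06 in *Fars2* and *Vars2* to 0.13 in *Ears2*, with *Mars2* at 0.08, *Cars2* at 0.07, *Iars2* at 0.06, *Rars2* at 0.04, *Aars2* and *Nars2* at 0.02, *Wars2* at 0.00, *Lars2* and *Sars2* at -0.02, *Tars2* at -0.03 and *Hars2* at -0.05.

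Calls depended on the array labelled KO light 3. Without it, 7 members passed limma's test as higher in KO light than in KO dark, against 5.68% of all genes. They were *Tars* (0.69 ± 0.11, adjusted p = 0.00198), *Hars* (0.41 ± 0.07, adjusted p = 0.00306), *Kars* (0.38 ± 0.07, adjusted p = 0.00466), *Yars* (0.37 ± 0.07, adjusted p = 0.00563), *Mars* (0.34 ± 0.06, adjusted p = 0.0023), *Yars2* (0.28 ± 0.07, adjusted p = 0.0152) and *Gars* (0.27 ± 0.07, adjusted p = 0.0198). The median over the classes was then 0.17 for cytosolic genes and 0.02 for mitochondrial genes, with 15 of 17 and 8 of 15 higher. In the exchanged comparison 8 members were called as higher, *Nars* in addition, against 7.01% of all genes, and 0 as lower, against 6.30%. The medians were 0.24 for the 17 cytosolic genes, with 16 higher, and 0.02 for the 15 mitochondrial genes, with 9 higher. The median of all genes was -0.01, with 45.4% higher.

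With the exchanged arrays *Tars* averaged 8.53 ± 0.33 log2 in KO light and 7.70 ± 0.07 in KO dark (SD, n = 3 each), a difference of 0.83 ± 0.12 (SE) with limma's adjusted p = 0.000494. *Hars* (0.42), *Mars* (0.41), *Yars* (0.41), *Kars* (0.38), *Gars* (0.35), *Nars* (0.30) and *Yars2* (0.29) followed, with adjusted p of 0.000494 to 0.00426. The member just inside the ratio threshold was *Yars2*, at a ratio of 1.223, and just outside it were *Rars* at 1.195, *Vars* at 1.194 and *Cars* at 1.192. These 3 genes, *Wars* (0.24), *Eprs* (0.18), *Sars* (0.16) and the mitochondrial *Cars2* (0.16) passed the adjusted p alone, so that 15 members did, 11 cytosolic, 2 dual and 2 mitochondrial, against 12.8% of all genes that passed it as higher. The KO light arrays so composed lay above KO dark in 18 of 34 members, against 20.0% of all genes. They lay below it in *Hars2* alone, against 18% of all genes. *Cars2* was one of these 18, at 8.24, 8.16 and 8.29 log2 in KO light 1, KO light 2 and WT dark 4, against 8.11, 8.10 and 7.99 in KO dark, while KO light 3 had 8.02.

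The reactive glia genes given above were also highest in KO light 1, KO light 2 and WT dark 4 and lower in KO light 3. Cone genes (5 of 5 measured) had means of 10.15 and 10.56 log2 in KO light 1 and 2, 10.13 in WT dark 4 and 10.83 in KO light 3, against 10.88 to 10.91 in KO dark. Rod genes had means of 11.97, 12.13 and 12.21 log2 in KO light 1 to 3 and 11.92 in WT dark 4, against 12.24 to 12.27 in KO dark, and bipolar cell genes had 10.46, 10.53 and 10.64 log2 in KO light 1 to 3 and 10.47 in WT dark 4, against 10.65 to 10.68 in KO dark. Their part in the light differences of the synthetases was not tested.

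**Figure D2:**
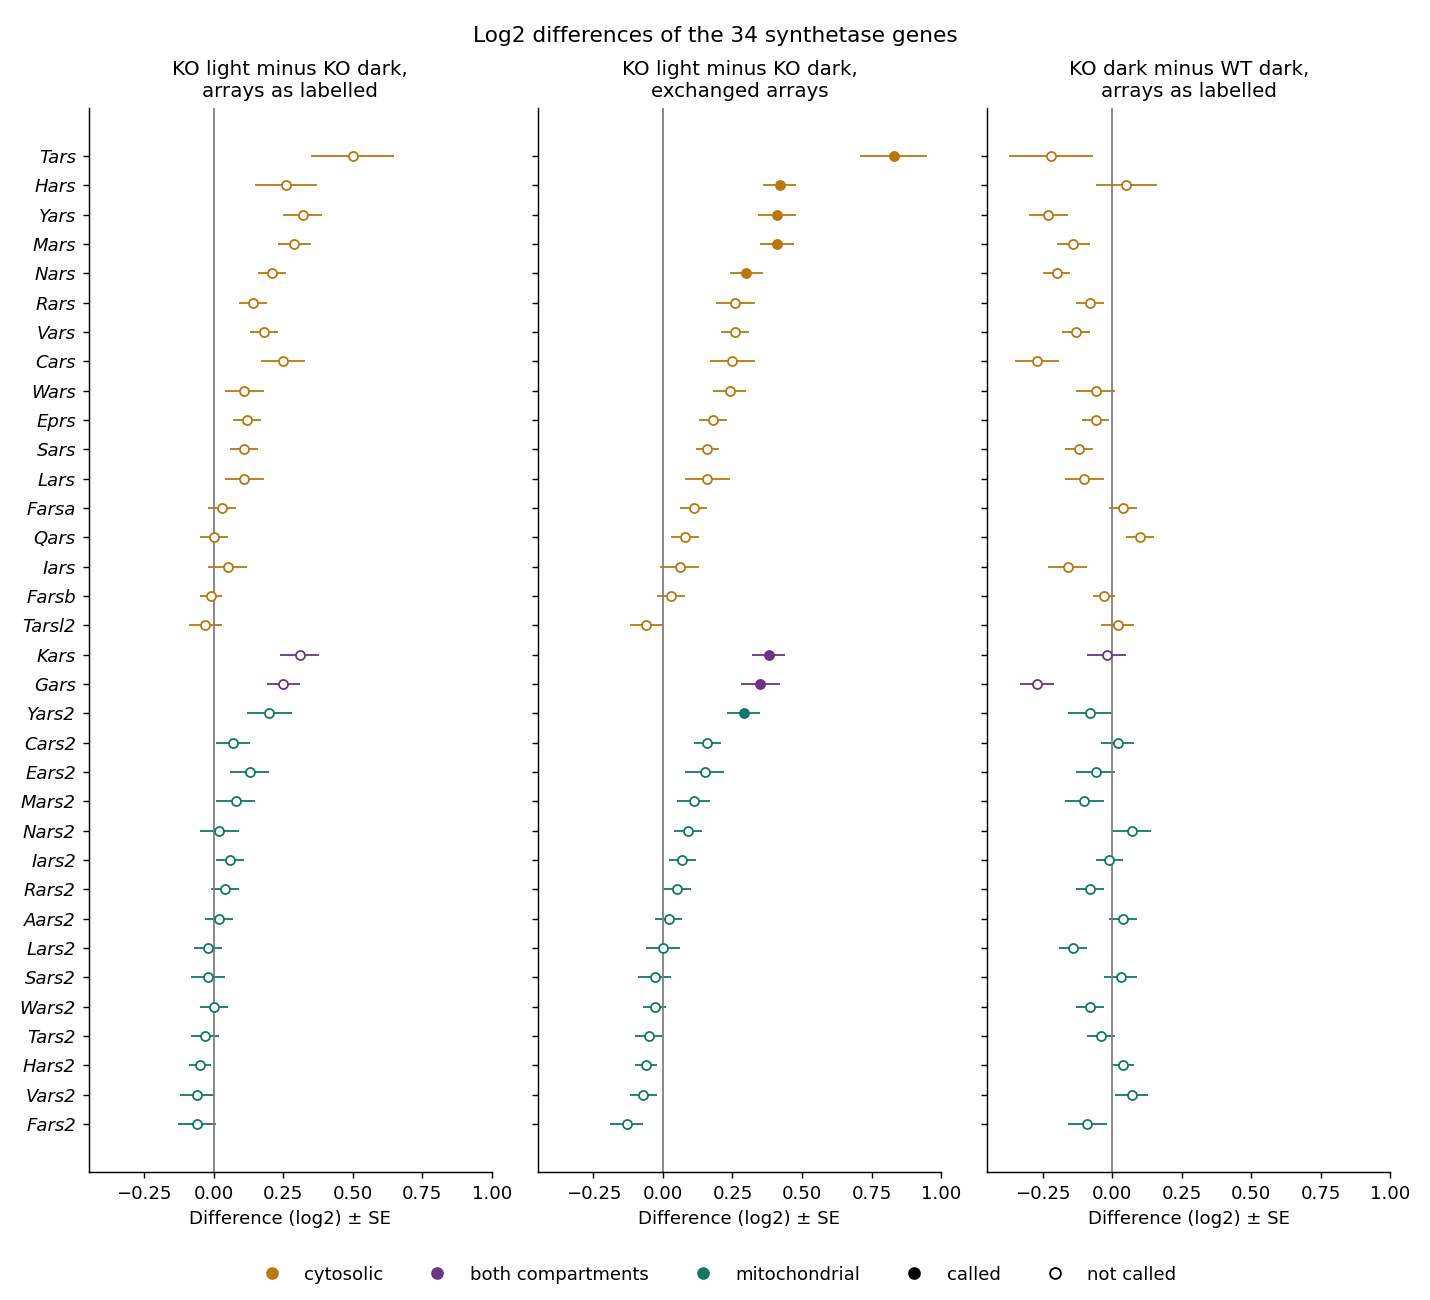
Log2 difference ± SE of the 34 synthetase genes for KO light minus KO dark with the arrays as labelled and with the exchanged arrays, and for KO dark minus WT dark. Filled points passed limma's test with the ratio thresholds. The 8 filled points are all in the exchanged comparison, with *Tars* at 0.83 and the mitochondrial *Yars2* at 0.29. The other mitochondrial genes run from -0.13 in *Fars2* to 0.16 in *Cars2* there.

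**Figure D3:**
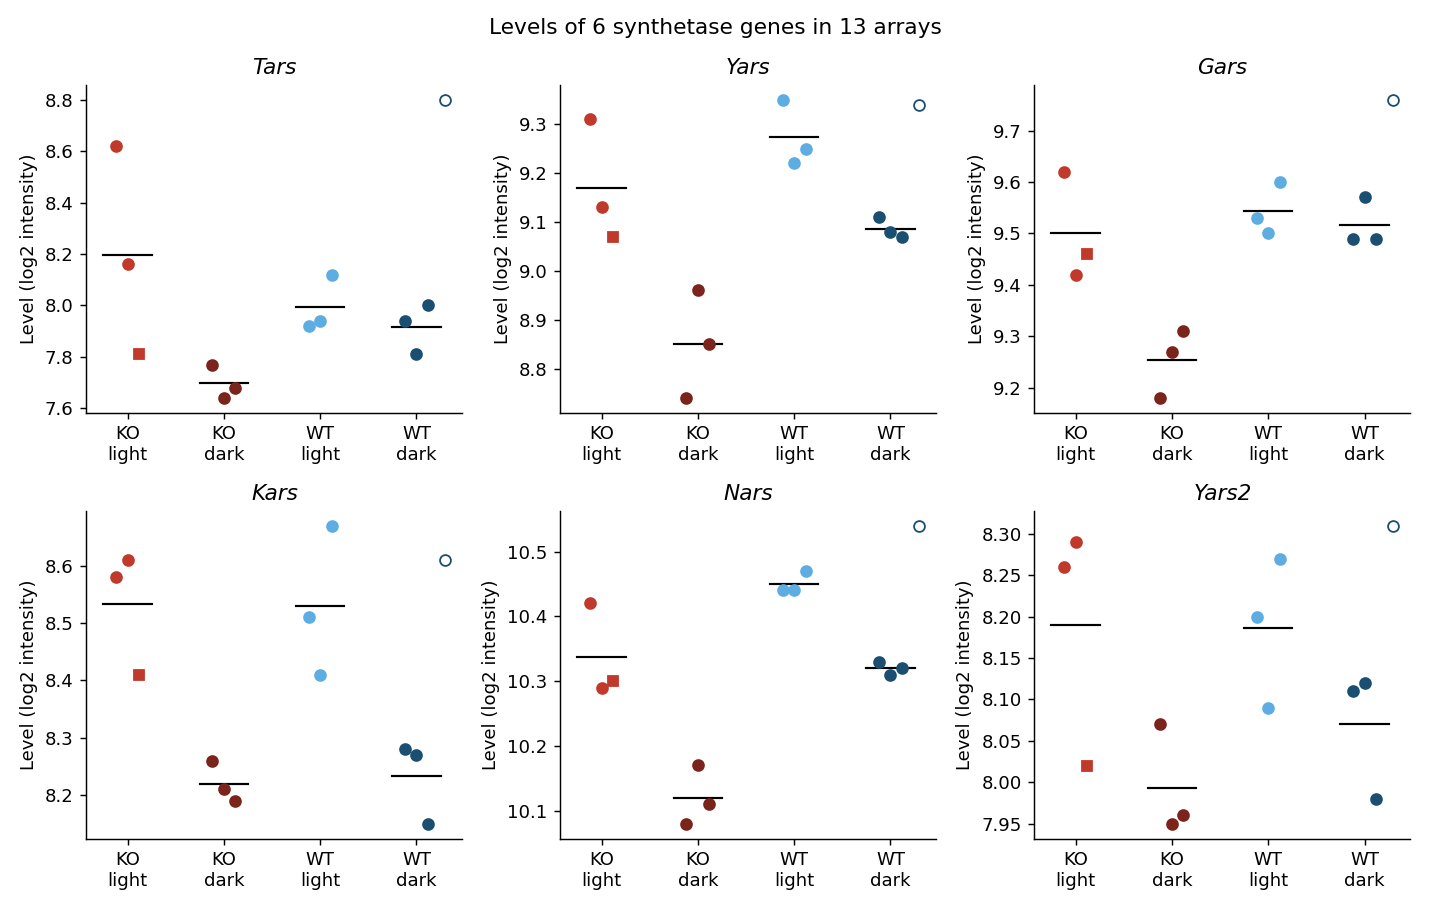
Log2 intensity of *Tars*, *Yars*, *Gars*, *Kars*, *Nars* and *Yars2* in each array, with lines for the means of 3 arrays. The square is KO light 3 and the open circle is WT dark 4, which is not in the mean. *Tars* spans 7.81 to 8.62 in KO light, against 7.64 to 7.77 in KO dark, and WT dark 4 is at 8.80.

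After light, KO and WT retinae were set against each other. The median difference KO light minus WT light was -0.05 log2 units over the cytosolic genes, -0.04 over the mitochondrial genes and -0.01 over all genes. A lower mean in KO light was found in 14 of 17 cytosolic and 11 of 15 mitochondrial genes, against 56.5% of all genes. No member was called by limma (0.176% of all genes were), and none at an unadjusted p under 0.05 with the ratio thresholds (4.47% of all genes) or without moderated variances. With that unadjusted p alone 4 members were lower, namely *Nars*, *Sars*, *Lars2* and *Mars2* (-0.16), against 7.17% of all genes. None was higher, against 5.72% of all genes. The KO light arrays lay below WT light in 6 of 34 members (*Lars*, *Nars*, *Rars*, *Sars*, *Lars2* and *Rars2*), against 8.45% of all genes.

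*Lars2* had 7.75, 7.81 and 7.90 log2 in KO light, against 7.99, 7.99 and 8.06 in WT light (-0.20 ± 0.05, adjusted p = 0.171 by limma). It was lower in KO than in WT in the dark as well (-0.14), with no overlap in either comparison. Without KO light 3 the light difference was -0.24 ± 0.05 and *Lars2* was called (adjusted p = 0.0222), against 2.04% of all genes called as lower. It was -0.18 ± 0.06 (adjusted p = 0.0591) and no call with the exchanged arrays. *Rars2* (arginine) had 9.05, 9.07 and 9.00 log2 in KO light, against 9.17, 9.13 and 9.13 in WT light (-0.10 ± 0.05, adjusted p = 0.423). Both mitochondrial genes kept the KO arrays below the WT light arrays without overlap with the arrays as labelled and with the exchanged arrays.

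*Nars* had 10.42, 10.29 and 10.30 log2 in KO light, against 10.44, 10.44 and 10.47 in WT light (-0.12 ± 0.05, adjusted p = 0.336 by limma). *Sars* had 10.35, 10.33 and 10.27 log2 in KO light, against 10.42, 10.45 and 10.42 in WT light (-0.12 ± 0.05, adjusted p = 0.345). *Sars* was lower in KO than in WT under both conditions without overlap. *Lars* differed by -0.11 and *Rars* by -0.10. The only cytosolic genes with a higher mean in KO light were *Tars* (0.21), *Hars* (0.09) and *Vars* (0.09). For *Tars* this rested on KO light 1, without which the difference was 0.00. When the arrays were exchanged these 3 lay above WT light without overlap, against 13.9% of all genes, and 5 members (*Sars*, *Tarsl2*, *Lars2*, *Rars2* and *Wars2*) lay below it, against 15.4%. With these arrays *Tars* was called at 0.53 ± 0.12 (limma's adjusted p = 0.0132), against 4.56% of all genes called as higher. The call of *Tars* was not made without KO light 3.

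The same question was put to WT retinae after light. The median difference WT light minus WT dark was 0.11 log2 units for the cytosolic, 0.05 for the mitochondrial and 0.02 for all genes. A higher mean after light was found in 15 of 17 cytosolic genes, in *Gars* and *Kars*, and in 10 of 15 mitochondrial genes, against 56.1% of all genes. No member was called by limma (0.431% of all genes were) or without moderated variances, and at an unadjusted p under 0.05 with the ratio thresholds 1 was higher, against 2.30% of all genes. At that p alone 8 were higher, against 10.7% of all genes, and 0 lower, against 6.49%. The light arrays lay above WT dark 1 to 3 in 14 members (10 cytosolic, *Kars*, *Cars2*, *Iars2* and *Nars2*), against 17.5% of all genes, and below in 2 (*Vars* and *Fars2*), against 10.7%.

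That member was *Kars*, with 8.51, 8.41 and 8.67 log2 in WT light, against 8.28, 8.27 and 8.15 in WT dark 1 to 3 and 8.61 in WT dark 4. Its difference of 0.30 ± 0.07 had limma's adjusted p = 0.082, and it was called when the fit did not hold KO light 3, at 0.30 with an adjusted p of 0.0187 without that array and of 0.0131 with the exchanged arrays, against 2.13% of all genes called as higher in each. *Hars* had 8.37, 8.39 and 8.48 log2 in WT light, against 8.28, 8.15 and 8.15 in WT dark and 8.67 in WT dark 4 (0.22 ± 0.11, adjusted p = 0.326). *Yars* had 9.35, 9.22 and 9.25 log2 in WT light, against 9.11, 9.08 and 9.07 in WT dark (0.19 ± 0.07, adjusted p = 0.21). The WT arrays of these genes did not overlap between light and dark, with WT dark 4 left out. *Mars* (0.16), *Rars* (0.16), *Wars* (0.14), *Nars* (0.13), *Sars* (0.11), *Qars* (0.11), *Eprs* (0.10) and *Farsa* (0.08) were the other cytosolic genes without overlap.

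The 2 members below WT dark were of different kinds. *Fars2*, the mitochondrial phenylalanyl gene, had 8.43, 8.55 and 8.55 log2 in WT light, against 8.69, 8.67 and 8.63 in WT dark and 8.45 in WT dark 4 (-0.15 ± 0.07, adjusted p = 0.293 by limma). *Vars* had 8.39, 8.36 and 8.42 log2 in WT light, against 8.43 in each of WT dark 1 to 3 and 8.64 in WT dark 4 (-0.04 ± 0.05, adjusted p = 0.718). *Cars2* had 8.11, 8.19 and 8.22 log2 in WT light, against 8.04, 8.09 and 8.02 in WT dark (0.12 ± 0.06), and *Nars2* had 8.61, 8.55 and 8.60 log2, against 8.46, 8.43 and 8.54 (0.11 ± 0.07). *Tars*, which led the KO difference, was not separate in WT, at 7.92, 7.94 and 8.12 log2 in WT light, against 7.94, 7.81 and 8.00 in WT dark (0.07 ± 0.15). *Gars* likewise had 9.53, 9.50 and 9.60 log2 in WT light, against 9.49, 9.57 and 9.49 in WT dark (0.03 ± 0.06).

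The difference between the light responses, KO minus WT, was tested as an interaction. No member passed an adjusted p under 0.05 with limma, against 0.0602% of all genes, and none without moderated variances. At an unadjusted p under 0.05 2 were positive, *Vars* (0.22 ± 0.06) and *Gars* (0.22 ± 0.09), against 2.82% of all genes. *Tars* had the largest value, 0.43 ± 0.21, with limma's adjusted p = 0.753, and 0.22 without KO light 1. The medians were 0.01 for cytosolic genes, -0.04 for mitochondrial genes and -0.02 for all genes, and 0.12 for the 11 Atf4 targets, of which 9 were positive. With the exchanged arrays *Tars* (0.76 ± 0.17, adjusted p = 0.0383) and *Vars* (0.29 ± 0.06, adjusted p = 0.0318) passed, against 2.00% of all genes with a positive call, while without KO light 3 neither did (adjusted p = 0.0744 for *Vars*).

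Cytosolic and mitochondrial genes for the same amino acid were set side by side in 15 pairs, with *Farsa* and *Farsb* each paired with *Fars2*. For KO light minus KO dark the cytosolic gene had the larger difference in 13 of 15 pairs, and in 14 of 15 with the exchanged arrays. The widest gap was between *Tars* (0.50) and *Tars2* (-0.03), followed by *Hars* (0.26) and *Hars2* (-0.05). *Vars* (0.18) and *Vars2* (-0.06) also went in opposite directions. In WT light minus WT dark the cytosolic gene had the larger difference in 12 of 15 pairs, for example *Hars* (0.22) and *Hars2* (-0.01), whereas *Iars* (-0.08) lay below *Iars2* (0.10). For KO dark minus WT dark it had the larger difference in 5 of 15, with *Cars* (-0.27) and *Cars2* (0.02), *Nars* (-0.20) and *Nars2* (0.07), and *Vars* (-0.13) and *Vars2* (0.07) in opposite directions. For KO light minus WT light it did so in 5 of 15, and in 10 of 15 with the exchanged arrays. The 2 comparisons of KO dark share its 3 arrays, so that low KO dark values enter both.

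**Figure D4:**
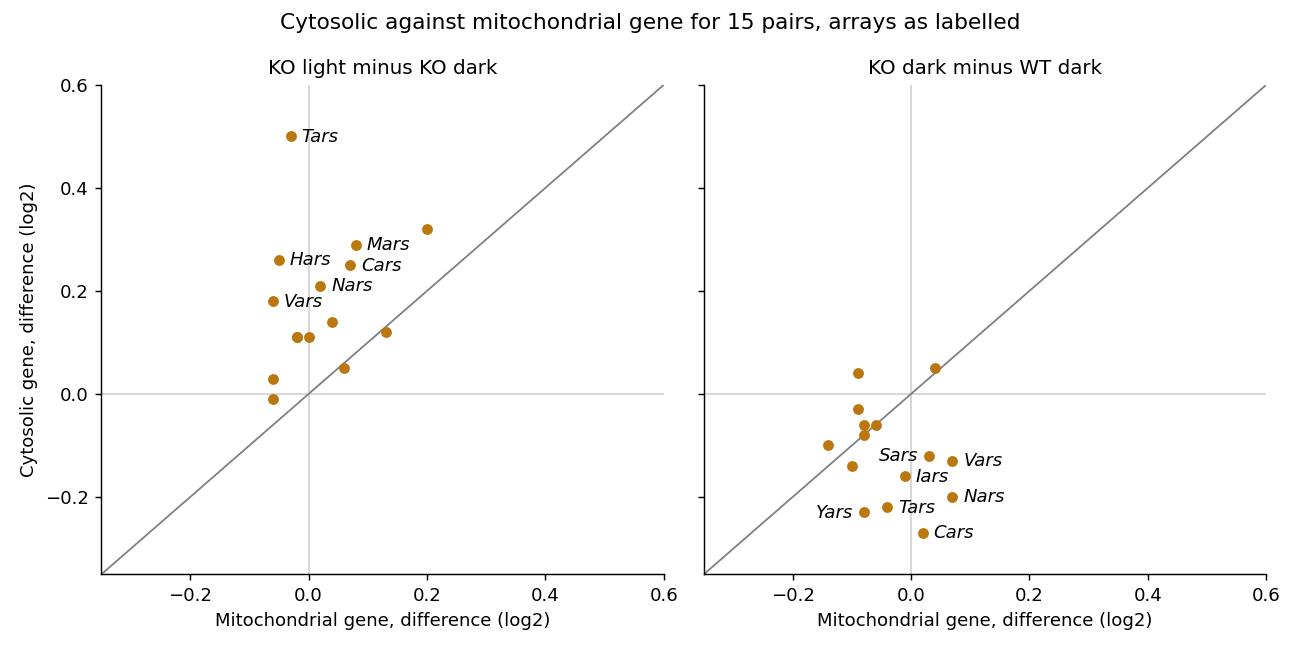
Log2 difference of the cytosolic gene against that of the mitochondrial gene in 15 pairs, for KO light minus KO dark and for KO dark minus WT dark, with the arrays as labelled. The line marks equal differences. In KO light minus KO dark 13 of 15 pairs lie above the line, with *Tars* at 0.50 against -0.03 for *Tars2*, and in KO dark minus WT dark 5 of 15 do.

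Genes that work with the synthetases were counted by fixed lists. Of all genes, 0.0752% were called in KO dark with WT dark and 0.176% in KO light with WT light. In KO light with KO dark 0.100% were, and in WT light with WT dark 0.431%. Of the amino acid response genes (20 of 20 measured), 1 was called in each of these comparisons except WT light with WT dark, where 0 were. It was *Asns*, the asparagine synthetase and a classical Atf4 target, with 9.91, 9.79 and 9.97 log2 in KO light and 9.39, 9.50 and 9.50 in KO dark, against 10.39, 10.36 and 10.49 in WT light and 10.09, 10.15 and 10.15 in WT dark 1 to 3. Every KO array lay below every WT array. The differences were -0.66 ± 0.06 for KO dark minus WT dark (limma's adjusted p = 0.00148), -0.53 ± 0.06 for KO light minus WT light (0.00927) and 0.42 ± 0.06 for KO light minus KO dark (0.0178). WT dark 4 had 10.22, outside the range of the KO arrays. In the dark *Asns* was called with each array left out in turn. After light the KO against WT difference lost its call without WT light 1 (adjusted p = 0.0619). The KO light against KO dark difference lost it without KO dark 1, 2 or 3 or KO light 1 (adjusted p of 0.0611 to 0.112). With the 6 arrays of a comparison alone, limma called neither KO light against WT light (adjusted p = 0.386) nor KO light against KO dark (0.39). The latter also lost its call with 13 arrays (adjusted p = 0.0772) and without moderated variances (0.0618).

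*Atf4* itself had 9.09, 8.91 and 8.85 log2 in KO light, against 8.79, 8.70 and 8.70 in KO dark, and 8.85, 8.84 and 8.83 in WT light, against 8.85, 8.83 and 8.85 in WT dark 1 to 3 and 9.16 in WT dark 4. It was not called with the arrays as labelled, and for KO light minus KO dark it was called without KO light 3 (0.27 ± 0.06, limma's adjusted p = 0.00807) and with the exchanged arrays (0.32 ± 0.06, adjusted p = 0.00144). In the exchanged comparison *Atf3* (1.97), *Slc7a11* (0.61), *Asns* (0.51), *Mthfd2* (0.49), *Eif2ak3* (0.42), *Shmt2* (0.34) and *Slc3a2* (0.30) of the list were also called as higher and *Vldlr* (-0.33) as lower. Thus 8 of 20 were higher, against 7.01% of all genes, and 1 lower, against 6.30%. The value of *Asns* includes WT dark 4 at 10.22 log2, against 9.91 and 9.79 in KO light 1 and 2. Without KO light 3 the *Asns* difference was 0.38 ± 0.06. With the exchanged arrays *Asns*, *Chac1* (-0.57) and *Mthfd2* (-0.55) were called as lower in KO dark than in WT dark. Of all genes 0.878% were called there in either direction. *Atf3* (1.45) and *Slc7a11* (0.84) were called as higher in KO light than in WT light, against 4.56% of all genes. *Asns* (-0.44), *Chac1* (-0.47), *Vldlr* (-0.30) and *Ddit4* (-0.27) were called as lower there, as were 730 of 19937 genes. *Ddit4* (0.31) and *Eif2ak3* (0.27) were called as higher in WT light than in WT dark, against 2.13% of all genes.

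The cytosolic partners (12 of 13 measured) comprise scaffold proteins of the multisynthetase complex, the tRNA exporter, editing enzymes and elongation factors. With the arrays as labelled 0.0752% of all genes were called in KO dark with WT dark, and 1 of these partners was. This was *Dtd2*, which removes mischarged amino acids from tRNA, with 8.71, 8.83 and 8.64 log2 in KO dark, against 9.41, 9.31 and 9.46 in WT dark 1 to 3 (-0.67 ± 0.09, limma's adjusted p = 0.0161). The call was lost without KO dark 1 or 3 or without any 1 of the WT dark arrays (adjusted p of 0.0593 to 0.126). It was also lost with 13 arrays (limma's adjusted p = 0.0581) and without moderated variances (adjusted p = 0.115). *Dtd2* had 8.83, 8.80 and 9.17 log2 in KO light 1 to 3, against 9.07, 9.23 and 9.13 in WT light, and 9.14 in WT dark 4. KO light 3 and WT dark 4 thus both lay within the range of the WT light arrays for this gene. With the exchanged arrays *Eef1b2* (0.51), *Aimp2* (0.32), *Eef1a1* (0.28) and the exporter *Xpot* (0.27) were called as higher in KO light than in KO dark. Of all genes 7.01% were. *Eef1b2* was also called as higher than in WT light (0.40), as were 4.56% of all genes, and in the interaction (0.49), as were 2.00%. Of the mitochondrial partners (11 of 12 measured), which comprise the amidotransferase subunits, the formyltransferase, *Pars2* and elongation factors, 0 were called with the arrays as labelled in the 4 comparisons. *Trnt1*, which adds the CCA end to tRNA of both compartments, was called with the exchanged arrays for WT light minus WT dark (0.36 ± 0.09, limma's adjusted p = 0.0335). Of all genes 2.13% were called as higher there. The medians of KO light minus KO dark with the arrays as labelled were 0.17 for the amino acid response, 0.13 for the cytosolic partners and 0.01 for the mitochondrial partners, against 0.00 for all genes.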

How the data were processed

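The values deposited by the authors are linear intensities of probe sets, 1 column per array, already brought to a common level (medians of 141.1 to 145.6 over the 13 arrays). The methods name Partek and Bioconductor without versions, and summarization, normalization between arrays and filters are not given in the sources. Labels and methods differ on the extraction of RNA (Trizol or another kit) and on sex.

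Intensities were taken to log2. Of 34760 probe sets, the 21640 with 1 symbol were averaged to 19937 genes, and 1321 with several symbols and 11799 without a symbol in the table were left out. Of the members only *Iars* had 2 probe sets. The symbol *Mars1* is written *Mars*.

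limma 3.58.1 in R 4.3.3 fitted a 4-group model to 12 arrays (lmFit and eBayes, 8 residual degrees of freedom), without covariates and without WT dark 4. The Benjamini-Hochberg adjustment ran over all genes. A call needed an adjusted p under 0.05 together with a ratio of 1.2 or more, or of 0.87 or less, and for the interaction the adjusted p alone. The scripts were tested on simulated data with 200 changed genes. An exact permutation test of 3 against 3 arrays cannot go below p = 0.1 (two-sided) and was not used. For arrays depth is not defined, and the 3 arrays per group limit the precision. Nothing beyond the labels says that replicates came from separate litters or days.

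Members, classes (cytosolic, both, mitochondrial), lists (multisynthetase complex, Atf4 targets, partners of each compartment, amino acid response) and cell markers were chosen with earlier results of these data known. Class medians are descriptions without a test. Values in every array are given for members called in either set of arrays and, per comparison and class, for the 2 most raised and the 2 most lowered of those without overlap, partners being named where called. Other members are named with their difference. Alternatives were the exchanged arrays, 13 arrays, the 6 arrays of a comparison alone, no moderation, quantile normalization, a mean log2 of at least 6, the brightest probe set, a replicate block, and leaving out each array. After each gene's group mean was subtracted, same-numbered arrays of 2 groups correlated at -0.19 to 0.22. These values gave no sign that the numbers pair the arrays. Promoters come from the RefSeq table of GRCm38.p6. Protein sequences were not used here.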

Additional observations from a re-analysis of the deposited data

Results flagged for a closer look

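Within the 4 arrays labelled WT dark, 37 values (34 members and 3 class medians) were checked for an array far from the others, by its gap to the nearest array over the whole range, against Dixon's critical value for 4 samples. Chance flags about 1 in 20 checks when they are independent. These 37 share the same 4 arrays, and WT dark 4 had already been set apart by its values over all genes. The flags are therefore descriptions and no test. WT dark 4 was the high array in 5 cytosolic members, namely *Vars* (gap ratio 1.000, at 8.64 log2, against 8.43 in the others), *Nars* (0.940, at 10.54, against 10.31 to 10.33), *Wars* (0.929, at 9.86, against 9.59 to 9.61), *Farsa* (0.897, at 9.45, against 9.21 to 9.24) and *Yars* (0.853, at 9.34, against 9.07 to 9.11). WT dark 1 stood apart in *Iars* (0.916, high, at 10.36, against 10.27 to 10.28) and in *Vars2* (0.948, low, at 8.32, against 8.36 to 8.37). The median of the mitochondrial genes had a gap ratio of 0.939 for WT dark 2, at -0.01, where the 4 arrays differed by hundredths of a log2 unit.

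*Vars* was higher in each KO light array than in each KO dark array and lower in each WT light array than in each of WT dark 1 to 3. The difference between these responses was 0.22 on the log2 scale with the arrays as labelled (limma's adjusted p = 0.452) and 0.29 with the exchanged arrays (adjusted p = 0.0318). For *Tars* the difference with the exchanged arrays was 0.76 (adjusted p = 0.0383).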

How the results depend on the processing

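The counts of called members, 0 in each comparison with the arrays as labelled, changed when the array KO light 3 was left out or exchanged. With the exchanged arrays 8 members were called as higher for KO light against KO dark (7.01% of all genes) and 1 for KO light against WT light (4.56%). For WT light against WT dark 1 was (2.13%), and for the interaction 2 were (2.00%). Leaving out each of the 12 arrays in turn gave 0 to 7, 0 to 1, 0 to 1 and 0 to 0 for these, with every call coming without KO light 3, and 0 for KO dark against WT dark. With 13 arrays, the 6 arrays of a comparison alone, no moderation, quantile normalization, a mean of at least log2 6 and the brightest probe set, 0 members were called. The replicate numbers gave no sign of pairing the arrays. The fit with the replicate block also called 0 members in each of the 4 comparisons and the interaction.

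The cytosolic minus mitochondrial median kept its value within the spread between arrays of a group (0.04 log2 units) in most settings. For KO light minus KO dark it was 0.10 as labelled, 0.21 with the exchanged arrays and 0.08 to 0.14 leaving out each array, the highest without KO light 3. For KO dark minus WT dark it was -0.06, against -0.11 with 13 arrays and -0.09 (without WT dark 2) to -0.03 (without WT dark 1 or KO dark 3) leaving out each array. For KO light minus WT light it was -0.01, against 0.07 with the exchanged arrays. For the interaction it was 0.05, against 0.12 with the exchanged arrays, 0.10 with 13 arrays and 0.02 to 0.09 leaving out each array, the highest without WT dark 2. The cause of these differences between settings was not tested. Sex and light, and genotype and origin of the mice, cannot be told apart in any of them.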

Other observations

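*Iars* was the 1 member with 2 probe sets. One averaged 10.59 log2 in KO light and 10.61 in KO dark, against 10.58 in WT light and 10.76 in WT dark. The other averaged 9.79 log2 in KO light and 9.67 in KO dark, against 9.87 in WT light and 9.85 in WT dark. For both, KO dark averaged less than WT dark, whereas WT light lay below WT dark in the first and above it in the second. In the first, KO dark 1 (10.80) lay above WT dark 2 (10.72) and WT dark 3 (10.67). The second had no overlap between KO dark and WT dark 1 to 3. These differences between probe sets were not tested.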
